A study of Mus musculus with 30 samples.

Results

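The Krüppel-like factors are DNA-binding transcription factors, and 10 of them are described here: Klf2, Klf3, Klf4, Klf5, Klf6, Klf7, Klf9, Klf10, Klf13 and Klf15. They are 10 of the 17 Klf genes among the 35973 genes of the RNA tables, matched by gene symbol, and 39 of the 16367 sites in 5 deposited lists of changed chromatin sites carry the name of a member. The 10 were selected from these same RNA results, so their RNA levels and changes below are a description, and no test is built on them. The cells were primary fibroblasts from mouse tail tendon with wildtype genotype, kept in medium with 0.1% FBS during treatment. RNA was sequenced after DMSO, the solvent, after blebbistatin at 10 µM, which inhibits myosin II, or after Y27632 at 30 µM, a kinase inhibitor, with 3 libraries per group and 9 in all. ATAC-seq, which reads accessible chromatin, covered the same 3 treatments with 3 libraries each. A further 12 genomic DNA libraries, 3 per group, held cells given neither drug, blebbistatin alone, doxycycline at 10 ng/mL alone, or doxycycline with blebbistatin. The sources used here do not state what, if anything, doxycycline induced, or the assay of these 12 libraries in particular. No RNA from doxycycline-treated cells was analysed here. The labels do not say whether the 3 libraries of a group came from separate cultures or mice, so every SD and p-value measures the spread between these libraries, which may be technical.

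Krüppel-like factors share a set of zinc fingers at the C-terminus that binds GC-rich and CACCC-containing DNA, and they differ in the N-terminal part that recruits coactivators or corepressors. Klf2, Klf4, Klf5, Klf6 and Klf7 are mainly known as activators, Klf3 as a repressor that recruits CtBP, and Klf9, Klf10 and Klf13 as repressors that recruit Sin3. Several are immediate responders to mechanical and hormonal signals: Klf2 and Klf4 to fluid flow in endothelium, Klf10 to TGF-beta, and Klf9 and Klf15 to glucocorticoids.

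RNA libraries held from 23375386 to 37061737 reads in genes, and a member had from 144 reads (Klf15, in a Y27632 library) to 14623 reads (Klf4, in a Y27632 library). All 10 tendon fibroblast markers fixed for the check, among them Scx, Tnmd and Col1a1, were present, with a summed level of 28189 to 32945 counts per 1000000 reads (CPM) across the 9 libraries. They were not steady: blebbistatin raised 5 and lowered 3 of the 10 (5 called in all without DMSO replicate 2, blebbistatin replicate 1 or blebbistatin replicate 3), and Y27632 raised 6 and lowered 0. With Y27632, edgeR, DESeq2 and the fit without DMSO replicate 3 each called 1 lower. Most of the tendon marker sum came from the collagen genes Col1a1, Col1a2 and Col3a1. Scx had group means of only 2.40 to 2.94 CPM, and the endothelial marker Cdh5 had 2.52 to 3.18 CPM. Over all genes 53.0% were called with blebbistatin, 35.9% with Y27632 and 53.1% between the inhibitors. All 5 macrophage markers were higher than in DMSO with each inhibitor (limma on all genes), and their summed level was 210 to 233 CPM with DMSO, 302 to 342 CPM with blebbistatin and 307 to 349 CPM with Y27632. The Csf1r call with Y27632 was kept in 2 of the 6 fits that left out a library (limma, adjusted p up to 0.147). With Y27632 DESeq2 called 4 of the 5 macrophage markers. Macrophages also express Klf2 and Klf4, and the part of these cells in the values below was not tested. Between the 2 inhibitors 0 of the 5 macrophage markers passed edgeR's test, 0 had an unadjusted p under 0.05, and DESeq2 and limma called 0; 1 passed edgeR's test without blebbistatin replicate 2, without Y27632 replicate 2, or with no filter on low counts. The 5 endothelial markers summed to at most 4.54 CPM and the 4 epithelial markers to at most 0.758 CPM in any library. The 4 skeletal muscle markers summed to at most 1.56 CPM. Of these, Myod1, the skeletal muscle determinant, had no reads, and Acta1 had 9 to 39 reads per library. In bulk RNA of this kind, fewer cells of a type and less RNA per cell cannot be told apart.

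The sequences shown first are those the results return to. Klf2 was the member that moved furthest upward with Y27632, and its promoter is printed with a match to the MEF2 box in capitals, since the kinase ERK5 is known to act on Klf2 through MEF2 factors. Klf4 was the member that moved furthest with blebbistatin, and the only member with a listed site over its own start, so the 250 bases before its start are printed with the GC box GGGCGG in capitals on whichever strand it lies. Both are read 5′ to 3′ on the gene's strand, from RefSeq on GRCm38.p6, whose coordinates are those of mm10, and both end at the base before the transcription start.

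Klf2, chr8:72318812-72319061, plus strand: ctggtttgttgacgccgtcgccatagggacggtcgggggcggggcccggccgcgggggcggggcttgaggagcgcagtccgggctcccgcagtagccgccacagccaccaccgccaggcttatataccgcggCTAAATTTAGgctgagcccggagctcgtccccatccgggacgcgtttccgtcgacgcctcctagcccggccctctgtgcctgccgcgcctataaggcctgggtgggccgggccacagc
Klf4, chr4:55532476-55532725, minus strand: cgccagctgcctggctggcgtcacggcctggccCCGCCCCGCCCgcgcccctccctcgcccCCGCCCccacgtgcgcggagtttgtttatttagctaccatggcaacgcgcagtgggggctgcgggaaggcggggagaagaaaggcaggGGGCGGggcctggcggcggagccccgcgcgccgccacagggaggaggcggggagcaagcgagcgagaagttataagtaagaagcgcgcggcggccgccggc

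Promoters of 8 of the 10 members were in the RefSeq table, and each was searched on both strands over the 250 bases before the start. The MEF2 box was found in 1 of the 8, Klf2, where it began 118 bases before the start, and in 2.92% of all 32851 promoters. The GC box GGGCGG was found in 7 of the 8 and in 32.7% of all promoters, with 4 positions in Klf4, the first pair of which overlap. The core CACCC, which Krüppel-like factors themselves bind, was found in 6 of the 8 and in 52.0% of all promoters, and it was absent from the Klf4 window. The core GGAATG of the TEAD factors, the DNA-binding partners of Yap and Taz, and the CArG box of serum response factor were each found in 0 of the 8, against 12.6% and 1.47% of all promoters.

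TEAD motif matches were recorded at distal sites. They follow the authors' own motif and not the core GGAATG searched for in promoters, which match 4 below lacks. The sites also differ in length from the promoter windows, so the 2 searches are not compared. Of the 2 member sites that lost accessibility with blebbistatin in the ATAC libraries, the authors' deposited table gives 4 matches in the site near Klf5 at chr14:99499562-99500214 and 1 in the site near Klf4 at chr4:55579071-55579225 (mm10, on the minus strand). The matches are shown with the GGAAT core in capitals.

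Klf5 site, match 1: aGGAATgtag
Klf5 site, match 2: tGGAATgtgc
Klf5 site, match 3: aGGAATgcat
Klf5 site, match 4: aGGAATttca
Klf4 site: tGGAATgctg

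At least 1 such match was held by 603 of the 970 sites of that list, or 62.2%, and 5 sites, or 0.515%, held 4 or more. A match is a run of letters and not evidence of binding.

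With blebbistatin, RNA of most members was lower than with DMSO, and RNA of the activators Klf4 and Klf2 was lowered furthest, to 41.3% and 56.9% of the DMSO mean. With Y27632 the same 2 genes were higher, at 144% and 176% of the DMSO mean. A gene is described as called when its adjusted p was under 0.05 in the fit over all genes (limma on log2 of the normalised count + 1, Benjamini-Hochberg). With blebbistatin 8 of the 10 were called, 7 lower and 1 higher, where 53.0% of the 14882 genes tested were called and 26.9% were called lower. With Y27632 8 of the 10 were called, 7 higher and 1 lower, where 35.9% of the 14833 genes tested were called and 18.1% were called higher. The median log2 change of the 10 was -0.36 with blebbistatin and 0.19 with Y27632, against 0.00 for all genes in either comparison. Since the members were selected on these contrasts, nothing is read from those counts, and the 2 comparisons share their DMSO libraries, so the changes are only set side by side.

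**Figure D1:**
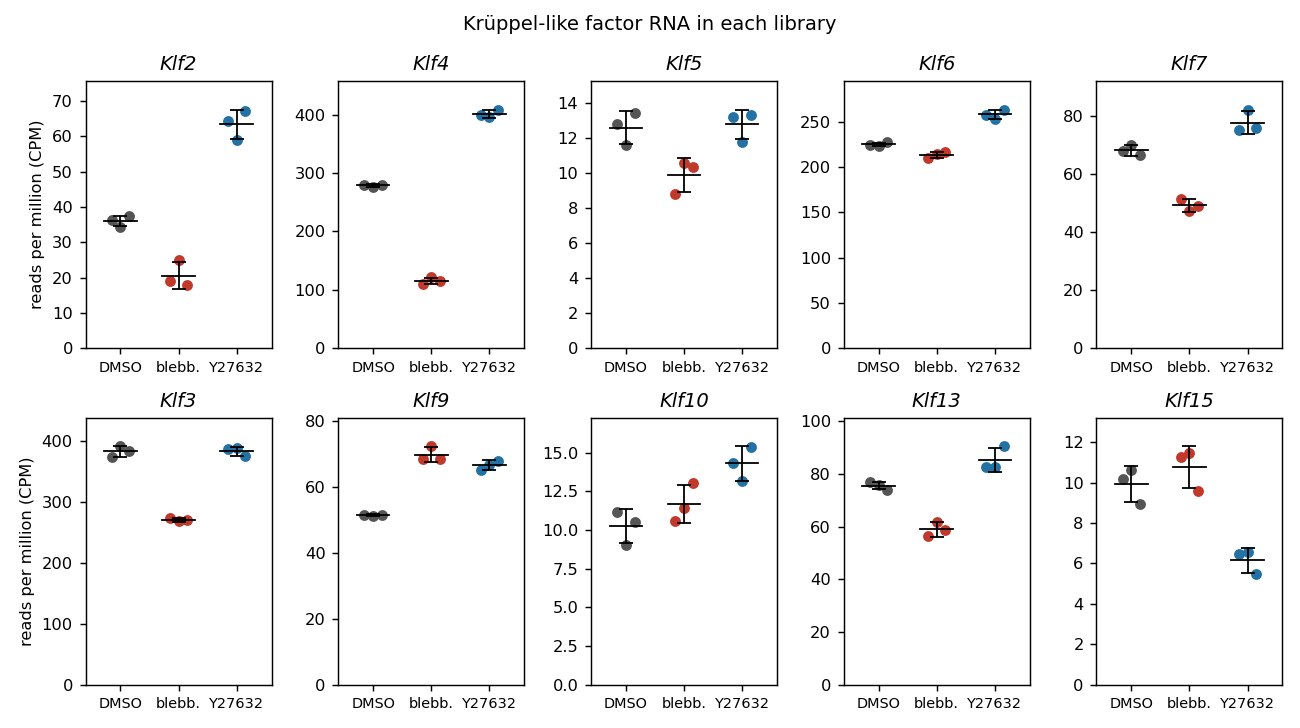
Each panel plots the CPM of 1 member in the 9 RNA libraries on an axis from 0, with points for libraries and a bar for the mean ± SD of 3. Klf2 and Klf4 fall in the order blebbistatin, DMSO, Y27632 without overlap, while Klf15 is lowest with Y27632.

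Klf4, the reprogramming and epithelial-barrier factor, stood at 280, 276 and 280 CPM in the 3 DMSO libraries. It stood at 111, 121 and 114 CPM with blebbistatin and at 400, 396 and 408 CPM with Y27632. The 3 groups were far apart and no library came near another group. The log2 change was -1.28 (SE 0.0350) with blebbistatin and 0.52 (SE 0.0285) with Y27632. Only 3.79% of the genes tested had a larger absolute change than Klf4 with blebbistatin.

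Klf2, a factor of endothelial and lymphocyte quiescence, was at 36.4, 34.4 and 37.4 CPM with DMSO. It was at 18.9, 24.9 and 17.9 CPM with blebbistatin and at 64.3, 58.9 and 67.1 CPM with Y27632. The groups did not overlap, and blebbistatin replicate 2 was the highest of its group. The log2 change was -0.82 (SE 0.0965) with blebbistatin and 0.81 (SE 0.0525) with Y27632, which 9.79% and 3.93% of genes exceeded in absolute size. Without any 1 library the blebbistatin change ran from -0.96 to -0.74.

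Klf5, a promoter of proliferation in epithelium and smooth muscle, had 225 to 483 reads per library. It was at 12.8, 11.6 and 13.4 CPM with DMSO, at 8.79, 10.5 and 10.3 CPM with blebbistatin and at 13.2, 11.8 and 13.3 CPM with Y27632. Blebbistatin libraries lay below all others, while DMSO and Y27632 libraries overlapped. The change was -0.35 (SE 0.0907) with blebbistatin and 0.02 with Y27632, where the 95% interval ran from -0.15 to 0.19.

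Klf6, an injury-induced activator of TGF-beta and collagen genes in stellate cells, had a mean of 225 CPM ± 1.97 (SD, n = 3) with DMSO, 213 ± 3.49 with blebbistatin and 258 ± 5.05 with Y27632. The groups were ordered without overlap, but the blebbistatin change was small, at -0.08 (SE 0.0296), and with Y27632 it was 0.20 (SE 0.0295). The Klf6 call with blebbistatin was lost under DESeq2 (adjusted p = 0.0997), without the filter on low counts (limma, adjusted p = 0.0756) and when any of 5 of the 6 libraries was left out (limma, adjusted p up to 0.141). Klf7, first known from neurons, followed the same order with larger steps: 68.1 CPM ± 1.85 (SD, n = 3) with DMSO, 49.2 ± 2.13 with blebbistatin and 77.6 ± 3.91 with Y27632. Its log2 change was -0.47 (SE 0.0451) with blebbistatin and 0.19 (SE 0.0427) with Y27632.

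Klf3, the repressor that recruits CtBP, had the smallest spread relative to its mean of the members under blebbistatin, with a coefficient of variation of 1.03%, at 273, 268 and 270 CPM. It was at 374, 391 and 383 CPM with DMSO and at 387, 388 and 375 CPM with Y27632. All blebbistatin libraries lay below the rest, and the other groups overlapped. The change was -0.50 (SE 0.0302) with blebbistatin and 0.00 with Y27632, with a 95% interval of -0.06 to 0.06.

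The 3 Sin3-recruiting repressors did not move alike. Klf9, which glucocorticoid and thyroid hormone induce, was at 51.6, 51.0 and 51.4 CPM with DMSO, at 68.4, 72.2 and 68.5 CPM with blebbistatin and at 65.0, 66.6 and 67.9 CPM with Y27632. It was the only member called higher with each of the 2 inhibitors, by 0.44 (SE 0.0382) and 0.37 (SE 0.0374). Klf10, the TGF-beta-inducible early gene, whose loss weakens mouse tendon, was at 11.2, 9.04 and 10.5 CPM with DMSO, at 10.6, 11.4 and 13.003 CPM with blebbistatin and at 14.3, 13.2 and 15.4 CPM with Y27632. Y27632 libraries were the highest and the other groups overlapped, with a change of 0.48 (SE 0.0903) for Y27632 and 0.19 for blebbistatin (95% interval -0.03 to 0.41). Klf13, a regulator of the chemokine Ccl5 in T cells, was at 75.5 CPM ± 1.38 (SD, n = 3) with DMSO, 58.9 ± 2.70 with blebbistatin and 85.2 ± 4.52 with Y27632. Its order was that of Klf2 and Klf4, with changes of -0.36 (SE 0.0414) and 0.17 (SE 0.0426).

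Klf15, a glucocorticoid-induced regulator of amino acid and lipid metabolism, ran the other way. It was at 10.2, 10.6 and 8.93 CPM with DMSO, at 11.3, 11.5 and 9.59 CPM with blebbistatin and at 6.45, 6.55 and 5.46 CPM with Y27632. The Y27632 libraries lay below all others and the other groups overlapped. The change was -0.69 (SE 0.101) with Y27632, the only lower call of a member there, and 0.12 with blebbistatin (95% interval -0.09 to 0.32). Of 3 adipocyte markers, Adipoq and Plin1 had at most 2 reads in any library, and Fabp4 passed the filter. Fabp4 moved with the same treatment, at 10.6 CPM with DMSO, 10.5 with blebbistatin and 7.11 with Y27632 (limma log2 change -0.58 with Y27632, called), and the 3 markers summed to 9.86 to 11.3 CPM, 9.85 to 11.4 CPM and 6.62 to 7.93 CPM. The part of such cells in the Klf15 values was not tested.

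**Figure D2:**
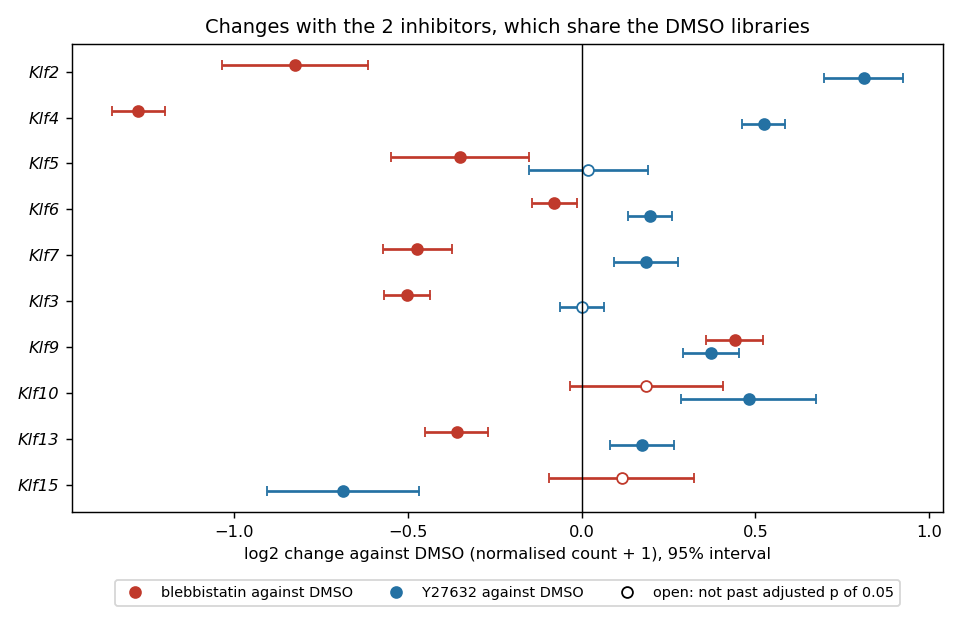
Log2 change of each member against DMSO with its 95% interval, blebbistatin in red and Y27632 in blue, and open points for genes that were not called. Klf2 lies at -0.82 and 0.81 and Klf4 at -1.28 and 0.52, Klf9 is to the right of 0 with either inhibitor, and Klf15 at -0.69 is the only blue filled point to the left.

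Reads of the 10 members together, not adjusted for gene length, were 1145 to 1153 CPM with DMSO, 820 to 843 CPM with blebbistatin and 1359 to 1382 CPM with Y27632. The share of those reads that came from Klf4 was 24.0 to 24.5% with DMSO, 13.5 to 14.4% with blebbistatin and 29.1 to 29.6% with Y27632. Compared with each other in 1 edgeR fit of the 9 libraries, blebbistatin cells had less RNA than Y27632 cells for 8 members and more for 1, so that 9 of 10 were called. Over all 14955 genes 53.1% were called and 26.2% were called lower with blebbistatin. The differences, blebbistatin minus Y27632 on the log2 scale, were -1.79 (SE 0.0324) for Klf4, -1.61 (SE 0.0892) for Klf2, -0.65 for Klf7, -0.52 for Klf13, -0.49 for Klf3, -0.35 for Klf5, -0.28 for Klf10 and -0.26 for Klf6. Klf15 was the member higher with blebbistatin, by 0.81 (SE 0.100). Klf9 differed by 0.08 (approximate 95% interval 0.01 to 0.15, edgeR adjusted p = 0.0641) and was not called. The Klf10 difference was not called without blebbistatin replicate 1 (edgeR, adjusted p = 0.0820), Y27632 replicate 1 (adjusted p = 0.0521) or Y27632 replicate 3 (adjusted p = 0.0884).

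Of the 7 Klf genes outside the members, Klf1, Klf14 and Klf17 had means below the filter of 10 normalised counts and were not tested. Of the other 4, blebbistatin raised Klf12, a repressor that binds CtBP, by 0.73 (SE 0.0671) and Klf11, a TGF-beta-inducible relative of Klf10, by 0.19 (SE 0.0674), while Klf16, another Sin3-binding repressor, fell by 0.80 (SE 0.0572), all on the log2 scale. Klf8 was not called, at -0.14. With Y27632 limma called 0 of the 4, 0 had an unadjusted p under 0.05, and edgeR and DESeq2 also called 0; Klf8 was at -0.10, Klf11 at -0.10, Klf12 at -0.03 and Klf16 at 0.02. Between the inhibitors Klf12 differed by 0.77, Klf11 by 0.30 and Klf16 by -0.80 (edgeR, 3 of 4 called). Over all genes 53.0% were called with blebbistatin, 35.9% with Y27632 and 53.1% between the inhibitors, and nothing is read from counts of 4 genes. The Klf11 call with blebbistatin was kept in 3 of the 6 fits that left out a library. With blebbistatin DESeq2 called 2 of the 4, not 3. The related Sp factors bind the same GC-rich elements, and Sp1, Sp2, Sp3 and Sp4 passed the filter. Only Sp2 was called against DMSO, at -0.27 (SE 0.0637) with blebbistatin and at -0.19 (SE 0.0615) with Y27632, and the latter call was lost without DMSO replicate 1, DMSO replicate 2 or Y27632 replicate 1, and with a replicate block. Sp1 was at -0.02 and 0.05, Sp3 at 0.05 and 0.00, and Sp4 at 0.15 and -0.18 with the 2 inhibitors.

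Upstream of Klf2 and Klf4, the kinase ERK5 (Mapk7) is known to act through MEF2 factors, which class IIa histone deacetylases hold in check. Of 11 genes of this pathway tested, blebbistatin raised 5 and lowered 1, with a list median of 0.06, so that 6 of 11 were called where 53.0% of all genes were. Mef2c rose by 0.75 (SE 0.0838) and the deacetylase Hdac5 by 0.29 (SE 0.0441), and Mapk7 itself fell by 0.20 on the log2 scale. Y27632 raised 3 and lowered 2, with a median of 0.05, where 35.9% of all genes were called: Hdac5 rose by 0.20 and Mef2a by 0.18, and the deacetylase Hdac9 fell by 0.89 and Mef2c by 0.27. Mef2c stood at 425, 512 and 527 normalised counts with DMSO and at 775, 786 and 891 with blebbistatin in 1 table. Its call with Y27632 was lost without DMSO replicate 2, DMSO replicate 3 or Y27632 replicate 3 (limma, adjusted p up to 0.0809). Mef2c differed by 1.03 (SE 0.0788) between blebbistatin and Y27632 (edgeR).

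Among the 12 cofactors and ubiquitin ligases, blebbistatin raised 1 and lowered 7, with a median of -0.17, where 53.0% of all genes were called and 26.9% were called lower. Fbxw7, a ligase subunit that targets Klf2 and Klf5 for degradation, fell by 0.68 (SE 0.0515) and the ligase Wwp1, which acts on Klf2 and Klf5, by 0.42, while the acetyltransferase Kat2b rose by 0.25. Fbxw7 was at 1339, 1461 and 1451 normalised counts with DMSO and at 869, 849 and 929 with blebbistatin, with no overlap. Without DMSO replicate 2 the count of called cofactors was 5, not 8. Y27632 raised 0 and lowered 3, with a median of -0.03, where 35.9% of all genes were called: Hdac1 fell by 0.26, Fhl3, a Klf3 cofactor, by 0.20, and Wwp1 by 0.19. The corepressors Ctbp1, Ctbp2, Sin3a and Sin3b were called in neither comparison with DMSO.

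Glucocorticoid-responsive genes are of interest beside Klf9 and Klf15, which the same receptor induces. Of 10 tested, blebbistatin raised 6 and lowered 3, with a median of 0.25, and Y27632 raised 8 and lowered 1, with a median of 0.33. Over all genes 53.0% and 35.9% were called. With blebbistatin Zbtb16 rose by 1.77 (SE 0.213) and the metallothionein Mt1 by 0.69, and Cebpd fell by 1.26 (SE 0.154) and the MAP kinase phosphatase Dusp1 by 0.66. With Y27632 Zbtb16 rose by 0.92 and Dusp1 by 0.88 (SE 0.0447), and Fkbp5 fell by 0.29. The Fkbp5 call, the only lower one with Y27632, was lost without DMSO replicate 2, DMSO replicate 3, Y27632 replicate 2 or Y27632 replicate 3 (limma, adjusted p up to 0.0963). Klf9 and Klf15, at 0.37 and -0.69 with Y27632, thus lay on opposite sides within the same libraries.

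The TGF-beta list concerns the inducer of Klf10 and a target of Klf6. Of 8 genes tested, blebbistatin raised 2 and lowered 5, with a median of -0.15, where 53.0% of all genes were called. Smad2, a receptor-activated mediator of the pathway, fell by 0.60 (SE 0.0378), from 2517, 2706 and 2599 normalised counts to 1715, 1719 and 1718. Smad7, the feedback inhibitor, fell by 0.58 (SE 0.0805). The ligand gene Tgfb1 rose by 0.73 and the receptor gene Tgfbr1 by 0.11, and the Tgfbr1 call was lost under DESeq2 and a replicate block and kept in 2 of the 6 fits that left out a library (limma, adjusted p up to 0.103). Y27632 raised 4 and lowered 1, with a median of 0.07, where 35.9% of all genes were called: Smad3 rose by 0.48 and Tgfb1 by 0.22, and Smad2 fell by 0.14. Without DMSO replicate 2, DMSO replicate 3, Y27632 replicate 1 or Y27632 replicate 3, or with a replicate block, the count with Y27632 was 3, not 5.

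Genes reported elsewhere as targets of Klf factors, mostly from endothelium, numbered 11, of which 10 were tested. Blebbistatin raised 3 and lowered 5, with a median of -0.08, and Y27632 raised 2 and lowered 3, with a median of -0.05. Over all genes 53.0% and 35.9% were called, which is not far from 5 of 10 with Y27632. The endothelin gene Edn1, which Klf2 represses in endothelium, fell by 2.29 (SE 0.239) with blebbistatin and by 1.56 (SE 0.214) with Y27632. It was at 67.5, 71.7 and 64.3 normalised counts with DMSO and at 10.4, 11.5 and 18.4 with blebbistatin. Nos3, which Klf2 activates in endothelium, fell by 1.32 with Y27632, and it lay at 22.8 to 29.9 normalised counts with DMSO, which few reads support. Nos3 was also lower with blebbistatin, at -1.12 to -0.85 with a library left out (limma, called in 6 of 6 fits). Ctgf fell by 1.60 (SE 0.0995) with blebbistatin, the receptor gene S1pr1 rose by 0.58 and 0.29, Lgals3 rose by 0.37 with blebbistatin, and the cell cycle inhibitor Cdkn1a rose by 0.21 with blebbistatin and by 0.10 with Y27632. The Cdkn1a call with Y27632 was kept in 2 of the 6 fits that left out a library (limma, adjusted p up to 0.148). The count with Y27632 was 3, not 5, when any 1 Y27632 library was left out or when a mean of 50 normalised counts was required.

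**Figure D3:**
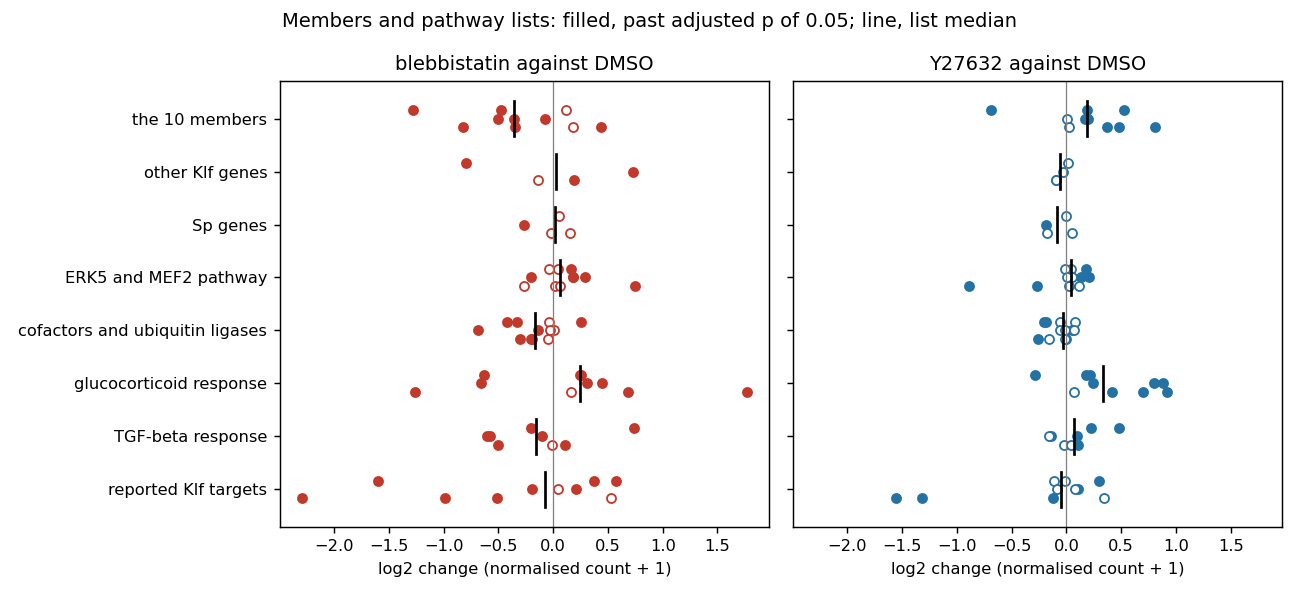
Log2 change of each tested gene, grouped by list, with blebbistatin on the left and Y27632 on the right, filled points for called genes and a vertical line for the list median. The members' line is at -0.36 and 0.19, and the other Klf genes with Y27632 are all open points near 0.

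The genes whose levels ran most like these were found by Pearson's r over the 9 libraries (log2 scale) among 11461 genes with a mean of at least 100. For Klf2 they were Ccl7, Tfrc and Tmed3, each at 0.994, and for Klf4 Ttpal at 0.997, Ppp1r15b at 0.996 and Kif26a at 0.996. The 9 points are 3 treatments with 3 libraries each, so such values describe the treatment pattern.

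In chromatin, each member site was lower than its reference in the blebbistatin lists and higher in the doxycycline list. Sites are named for the nearest gene start in the authors' deposited tables, which hold group means on a log2 scale and list only sites at a false discovery rate (FDR) of at most 0.05, so no per-library spread can be given. None of the 5 lists holds a site with an absolute log2 fold below 1, so a site missing from a list may have changed by less. The smallest absolute fold was 1.24 in the ATAC list for blebbistatin and 1.11 in that for Y27632. In the ATAC list for blebbistatin 2 of 2 member sites were lower, where 98.2% of the 970 sites were. In the list for blebbistatin without doxycycline 5 of 5 were lower, where 99.0% of 1231 were, and in that for blebbistatin with doxycycline 16 of 16, where 99.8% of 6346 were. In the doxycycline list 16 of 16 were higher, where 95.8% of 7613 were. The direction of the member sites is therefore that of each list. The Y27632 list, with 207 sites, named no member. In the other lists members were 0.21 to 0.41% of the sites, so nothing is read from their absence in so short a list. The 39 entries fell at 23 separate places: Klf5 had 12 entries at 5 places, Klf4 10 at 6, Klf3 6 at 3, Klf7 3 at 3, Klf2 and Klf6 2 at 2 each, and Klf9 and Klf10 2 at 1 each, while Klf13 and Klf15 had none.

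**Figure D4:**
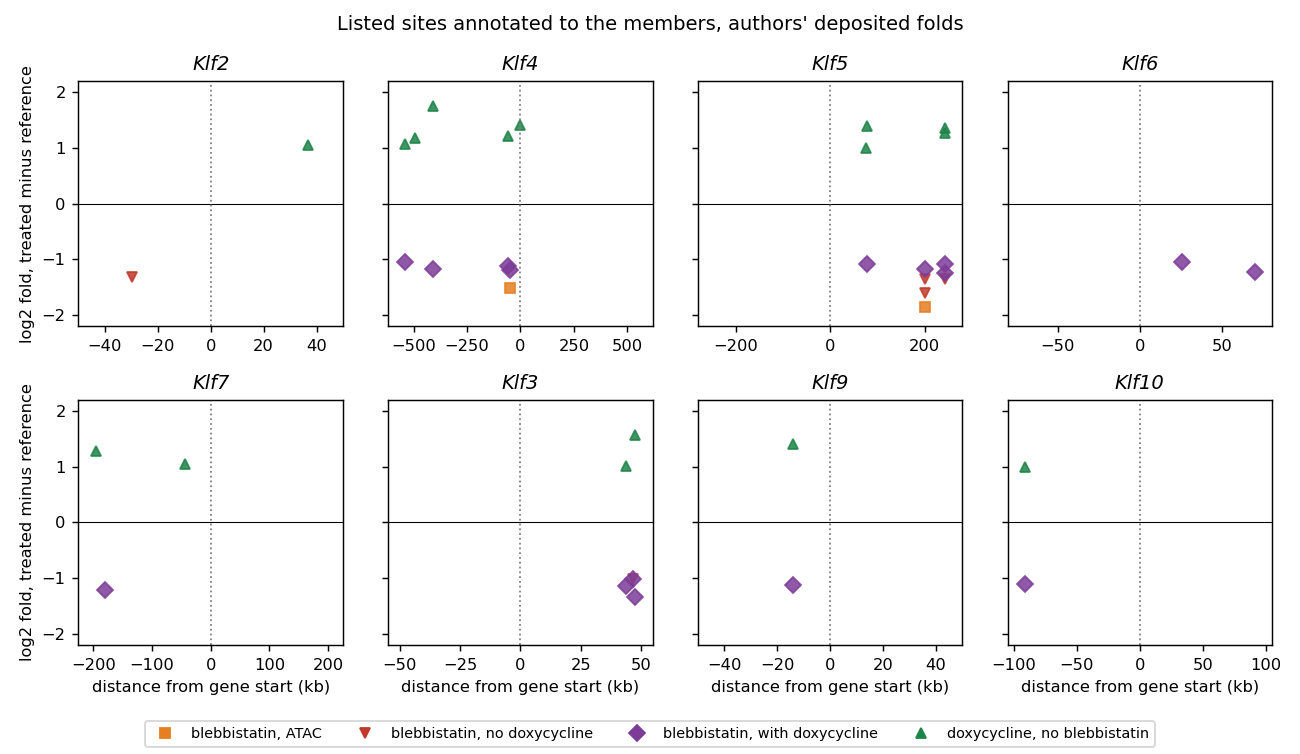
Each panel shows the listed sites of 1 member by distance from its start in kb (each panel has its own range) and by the authors' deposited log2 fold, treated minus reference. All green points (doxycycline) lie above 0 and all others, from the blebbistatin lists, below it, with the 2 lowest Klf5 points at about 201.2 kb.

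Near Klf5, 2 places were in 3 lists each, and the first lay 201.2 kb downstream of its start. In the authors' deposited table for ATAC the site at chr14:99499562-99500214 had a mean log2 signal of 7.90 with DMSO and 6.05 with blebbistatin, a fold of -1.85 (FDR 0.00713). It is the site with the 4 TEAD matches printed above. In the separate libraries without doxycycline the authors' deposited table lists 2 sites that overlap it, with folds of -1.60 (FDR 2.31e-06) and -1.36 (FDR 9.18e-05). With doxycycline, the authors' deposited table gives a fold of -1.17 (FDR 1.45e-07) for blebbistatin at the same place. These 3 comparisons share no library. The doxycycline list held no site there.

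The other, chr14:99541781-99542087, lay 243 kb from the start in the authors' deposited tables. There the fold was -1.36 for blebbistatin without doxycycline, 1.36 for doxycycline and -1.09 for blebbistatin with doxycycline. Klf5 RNA fell by 0.35 with blebbistatin, as given above, and whether any of these sites acts on Klf5 was not tested.

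For Klf4 the ATAC site at chr4:55579071-55579225, 46.7 kb upstream, had a fold of -1.51 (FDR 0.0202) in the authors' deposited table, from 5.58 to 4.08. The authors' deposited table for blebbistatin with doxycycline lists an overlapping site with a fold of -1.19. The site over the Klf4 start itself, chr4:55532260-55532856, annotated as promoter, was listed for doxycycline alone, rising from 7.99 to 9.40 in the authors' deposited table, a fold of 1.41 (FDR 6.18e-10). The 250 bases printed above for Klf4 lie within it. Further upstream, at 410 kb, a site at chr4:55942519-55942711 had the largest doxycycline fold of any member site in the authors' deposited table, 1.75, which 4.64% of the list exceeded in absolute size.

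For Klf2 the authors' deposited tables list 1 site lowered by blebbistatin without doxycycline, chr8:72289122-72289402 at 29.8 kb upstream (fold -1.32, FDR 0.00579). Another rose with doxycycline, chr8:72355559-72355955 at 36.7 kb downstream (authors' deposited fold 1.06), inside intron 22 of transcript NM_007944 of a neighbouring gene. The promoter printed above for Klf2 was in none of the lists. For Klf3 a site at chr5:64849890-64850231, 46.5 kb downstream, was lowered by blebbistatin without doxycycline (authors' deposited fold -1.02) and with it (-1.01), in comparisons that share no library. Of the 39 entries, 37 were annotated as intergenic, and the exceptions are the Klf4 promoter and the intron near Klf2.

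Both doxycycline lists hold 10 sites of 5 members: 3 each near Klf4 and Klf5, 2 near Klf3 and 1 each near Klf9 and Klf10. The comparisons share the doxycycline libraries, and each list keeps only sites with an absolute fold of at least 1. The least size of each step is therefore set by the choice of sites. Its direction is not, but it is that of nearly all sites of each list. In the doxycycline list 95.8% were higher, and with blebbistatin on top 99.8% were lower, so only the values are set out. In the authors' deposited tables the gain with doxycycline ran from 1.0 to 1.75 and the change with blebbistatin on top from -1.33 to -1.05. The Klf3 site at chr5:64851203-64851321 went from 3.79 with neither drug to 5.35 with doxycycline and 4.02 with doxycycline and blebbistatin, per the authors' deposited tables. The Klf9 site at chr19:23127185-23127325, 13.97 kb upstream, went from 4.10 to 5.51 and then to 4.39 in the same tables. The remaining member sites of the blebbistatin list with doxycycline lay near Klf6, with folds of -1.22 and -1.04 in the authors' deposited table, and Klf7, with -1.22, and near Klf3, Klf4 and Klf5 as given above.

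**Figure D5:**
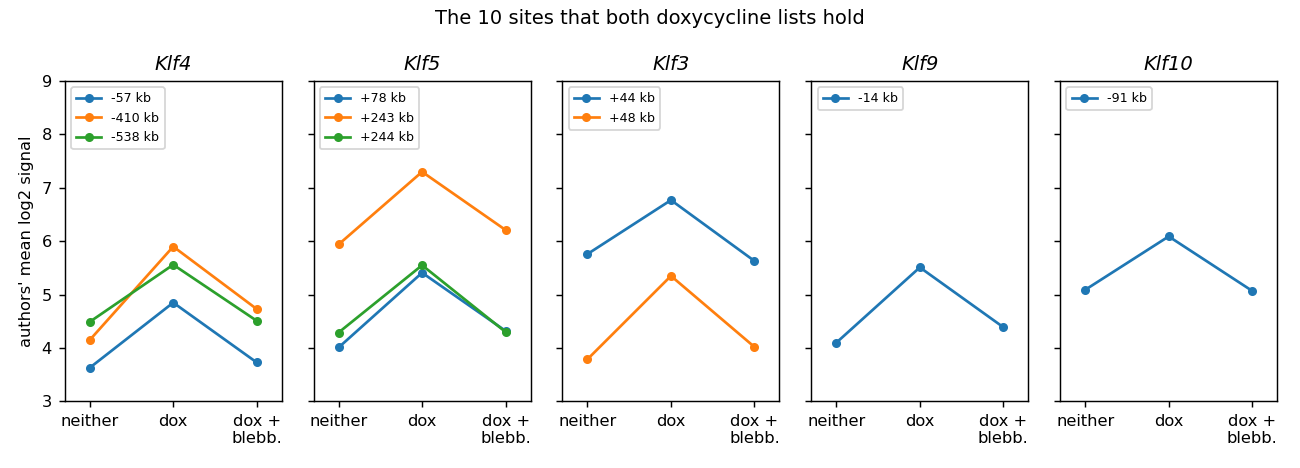
The authors' mean log2 signal at the 10 sites in both doxycycline lists, for cells with neither drug, doxycycline (dox), and doxycycline with blebbistatin, labelled by distance from the start. All lines peak in the middle group, by 1.0 to 1.75 over neither drug. Membership in both lists requires steps of about 1 or more, in either direction.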

How the data were processed

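Each RNA value is a normalised signal: the authors deposited read counts scaled by a size factor for every library, in 2 tables scaled separately. This was worked out from the values, since 100% of values above 0 were whole multiples of 1 step (tolerance 0.1 read). Per the submitters' processing notes, HISAT2, featureCounts, DESeq2, Bowtie2, MACS2, DiffBind and HOMER were used on mm10; strand handling is not given in the sources used here, so reads of overlapping antisense genes cannot be told apart. The authors' deposited log2 fold changes and p-values were not used for RNA. For sites, the deposited log2 group means and folds, p-values and FDR were used as given. The reference column of the doxycycline list is headed as blebbistatin alone but was read as neither drug: at 13 sites shared with another list it lay -0.13 from that group with an SD of 0.0044, and 1.12 (SD 0.18) from blebbistatin alone. The deposited percent and fraction columns were not used.

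Within each table, genes with a mean of at least 10 normalised counts were tested by limma 3.58.1 (trend) on log2(value + 1), which understates changes of low genes. The inhibitors were compared with edgeR 4.0.16 (TMM scaling, quasi-likelihood test) using the reads recovered for all 9 libraries, which also gave the CPM. For edgeR the SE was worked out from the test statistic and the interval from the normal distribution. Such intervals are approximate and too narrow for so few libraries, unlike those of limma, which use the t distribution. R was 4.3.3 and DESeq2 1.42.0 served as an alternative. Replicate pairs differed by 2.63 to 8.06 times counting noise (chi-square per gene), so none was a duplicate. Code was tested on simulated data. Named genes were all members, the other Klf and Sp genes past the filter, the 2 largest called changes per direction, list and treatment, and the 3 genes most correlated with Klf2 and Klf4; sites were all those of short lists, and otherwise the 3 largest folds and shared ones. The members and lists were chosen with earlier results of these data known. A gene of the TGF-beta list is not reported here, and its counts are without it.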

Additional observations from a re-analysis of the deposited data

Results flagged for a closer look

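For 5 members the 2 inhibitors moved RNA in opposite directions against DMSO, both changes were called by limma, and the difference between the inhibitors was itself called by edgeR. The difference, blebbistatin minus Y27632 on the log2 scale, was -1.61 for Klf2, -1.79 for Klf4, -0.26 for Klf6, -0.65 for Klf7 and -0.52 for Klf13. The members were selected from these same contrasts, and the 2 changes against DMSO share their controls. Over all genes 53.0% were called with blebbistatin, 35.9% with Y27632 and 53.1% between the inhibitors. The share of all genes that meet all these conditions was not counted. With 2 called changes of opposite sign, a called difference adds little. The Klf6 entry rests on a change with blebbistatin of -0.08, whose call most alternatives lost.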

How the results depend on the processing

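Over the 30 member changes and differences and their 420 alternative fits (pseudocount, filter, scaling, edgeR, DESeq2, a replicate block, each library left out), 412 kept their direction. The others concern Klf3 and Klf5 with Y27632, which were never called: Klf3 was at -0.0029 with edgeR, at -0.00078 with DESeq2 and between -0.014 and 0.017 with a library left out, and Klf5 between -0.040 and 0.075. Among the other Klf genes, with a library left out, Klf8 ran from -0.31 to 0.0090, Klf12 from -0.074 to 0.014 and Klf16 from -0.032 to 0.068 with Y27632. The count of called members was 7 to 8 with blebbistatin, 8 to 8 with Y27632 and 8 to 9 between the inhibitors when a library was left out. With the replicate number as a block it was 7, 8 and 9, the change being Klf6. Same-numbered libraries did not deviate together (correlations -0.20 to 0.088). No shared effect of the number was thus seen, which cannot tell whether the libraries were prepared in pairs. The Klf9 difference was called with upper-quartile factors (0.11, adjusted p = 0.0125). Keeping sites within 100 kb left 1 of 2 in the ATAC list, 2 of 5 for blebbistatin without doxycycline, 10 of 16 with it, and 10 of 16 for doxycycline, and an FDR of 0.01 left 1 of 2 in the ATAC list. Depth limits Klf5, Klf10 and Klf15 most, with 144 to 524 reads per library.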
